A study of Mus musculus with 16 samples.

Results

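The genes described here are the mouse genes with a Zfp number (Zfp for zinc finger protein) that lie on chromosome 7. They were chosen by name and chromosome from the gene names that the authors gave to their ATAC-seq peaks, with no use of a measured value. There were 85 such genes among 21435 genes in that annotation, beside 1665 other chromosome 7 genes and 271 Zfp-numbered genes on other chromosomes. ATAC-seq uses the Tn5 transposase to tag accessible DNA, and a peak is a stretch with more tags than its surroundings. The 16 libraries came from testes of C57BL/6 mice, 2 from each of 8 groups. Scml2-KO and wild-type mice each gave Thy1+ spermatogonia and c-Kit+ spermatogonia at postnatal day 7 (P7), called Thy1 and cKit here, and pachytene spermatocytes (PS) and round spermatids (RS) as adults. Scml2 encodes a germline Polycomb protein, and the labels give no further detail on the KO allele, so a promoter peak of Scml2 could not check it. Reactions used around 500000 spermatogonia, 250000 PS or 1000000 RS. All spermatogonia came from P7 mice and all PS and RS from adults, so stage and age cannot be told apart. Nothing in the labels ties replicates to separate mice, and a p-value here sets groups against the spread among libraries, possibly a technical one. In such bulk samples, fewer cells with an accessible promoter and less access per cell cannot be told apart.

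Most Zfp genes of this kind encode proteins with a run of C2H2 zinc fingers, each finger reading a few bases of DNA, and many carry a KRAB domain. KRAB zinc finger proteins recruit TRIM28, which brings in SETDB1 and HP1 proteins to form heterochromatin, above all over transposable elements. Their genes arose by local duplication and stand in clusters along the chromosomes. Not every Zfp-numbered gene is of this type. Zfp36 encodes tristetraprolin, a CCCH protein of mRNA decay, and Zfp143 encodes a general promoter-binding factor.

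Promoters of 4 genes with peaks in all P7 and in no adult library (Zfp773, Zfp418, Zfp551 and Zfp108), of Zfp954, whose peak was missing in RS only, and of Zfp143 and Zfp78, with strong peaks everywhere, are shown because the results turn on them. Each line is the 250 bases upstream of the RefSeq start on the gene's own strand, build GRCm38.p6 (mm10). Capitals mark ACTACA followed by 3 bases of any kind and CCCA, on either strand, a form met in known binding sites of human ZNF143 and THAP11. That pattern was chosen after the sequences had been read. The windows lie at chr7:7136756-7137005 (minus strand), chr7:7171103-7171352 (plus strand), chr7:12422492-12422741 (minus strand), chr7:24254544-24254793 (plus strand), chr7:7121477-7121726 (minus strand), chr7:110061452-110061701 (plus strand) and chr7:6363058-6363307 (plus strand).
Zfp773: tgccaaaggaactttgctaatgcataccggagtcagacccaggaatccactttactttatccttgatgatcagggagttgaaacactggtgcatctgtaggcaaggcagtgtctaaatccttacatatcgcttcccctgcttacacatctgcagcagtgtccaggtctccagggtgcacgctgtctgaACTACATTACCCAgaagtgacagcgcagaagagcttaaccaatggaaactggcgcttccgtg
Zfp418: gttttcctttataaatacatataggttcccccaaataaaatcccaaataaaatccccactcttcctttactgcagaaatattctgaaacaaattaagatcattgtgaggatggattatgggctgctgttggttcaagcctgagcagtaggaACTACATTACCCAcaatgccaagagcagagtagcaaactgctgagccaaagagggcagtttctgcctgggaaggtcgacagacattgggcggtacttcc
Zfp551: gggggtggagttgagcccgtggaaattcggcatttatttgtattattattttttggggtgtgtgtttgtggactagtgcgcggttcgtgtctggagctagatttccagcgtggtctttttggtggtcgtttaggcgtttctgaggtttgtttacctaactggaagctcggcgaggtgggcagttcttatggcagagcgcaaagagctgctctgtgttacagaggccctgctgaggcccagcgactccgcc
Zfp108: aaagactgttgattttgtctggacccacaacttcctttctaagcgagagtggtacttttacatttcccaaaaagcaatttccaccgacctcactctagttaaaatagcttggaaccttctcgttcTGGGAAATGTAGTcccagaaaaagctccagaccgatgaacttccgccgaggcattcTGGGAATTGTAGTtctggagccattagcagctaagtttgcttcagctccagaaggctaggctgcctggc
Zfp954: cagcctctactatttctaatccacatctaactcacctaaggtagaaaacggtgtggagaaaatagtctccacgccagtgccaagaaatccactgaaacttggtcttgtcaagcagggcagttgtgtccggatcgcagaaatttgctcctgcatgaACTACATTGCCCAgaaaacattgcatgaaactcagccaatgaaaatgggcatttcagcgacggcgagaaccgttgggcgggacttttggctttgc
Zfp143: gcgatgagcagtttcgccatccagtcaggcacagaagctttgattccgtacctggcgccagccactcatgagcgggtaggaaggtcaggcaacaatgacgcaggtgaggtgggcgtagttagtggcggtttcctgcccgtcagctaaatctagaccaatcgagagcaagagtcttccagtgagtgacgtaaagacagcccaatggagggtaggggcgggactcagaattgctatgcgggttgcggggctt
Zfp78: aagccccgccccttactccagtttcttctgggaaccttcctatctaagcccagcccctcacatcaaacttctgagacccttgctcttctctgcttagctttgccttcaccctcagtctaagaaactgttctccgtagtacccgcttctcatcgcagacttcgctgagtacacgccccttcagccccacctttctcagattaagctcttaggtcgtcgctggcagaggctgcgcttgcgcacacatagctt

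The pattern stood in the RefSeq promoter window (250 bases before to 50 after the start) of 25 of the 76 Zfp genes that matched a RefSeq promoter, which is 32.9%. It stood in 15.1% of 212 promoters of Zfp-numbered genes on other chromosomes, in 3.22% of 1272 promoters of other chromosome 7 genes and in 2.93% of all 15253 promoters. Among the 25 were Zfp773, Zfp418, Zfp954 and Zfp108, which held it 2 times in the window printed above. By the number of libraries with a promoter peak, it was found in 5 of 11 promoters of genes with a peak in 5 to 11 libraries, 14 of 35 with a peak in 12 to 15, and 5 of 28 with a peak in all 16. Neither Zfp551 nor Zfp143 nor Zfp78 held it. The pattern was chosen from the printed promoters, and Zfp773, Zfp418 and Zfp108 are among the 5 of 11. The split by libraries is thus no independent support for a link between the pattern and openness. Members of a cluster share ancestry, so these promoters are not independent sequences, and a match is a description of letters, not of binding.

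**Figure D1:**
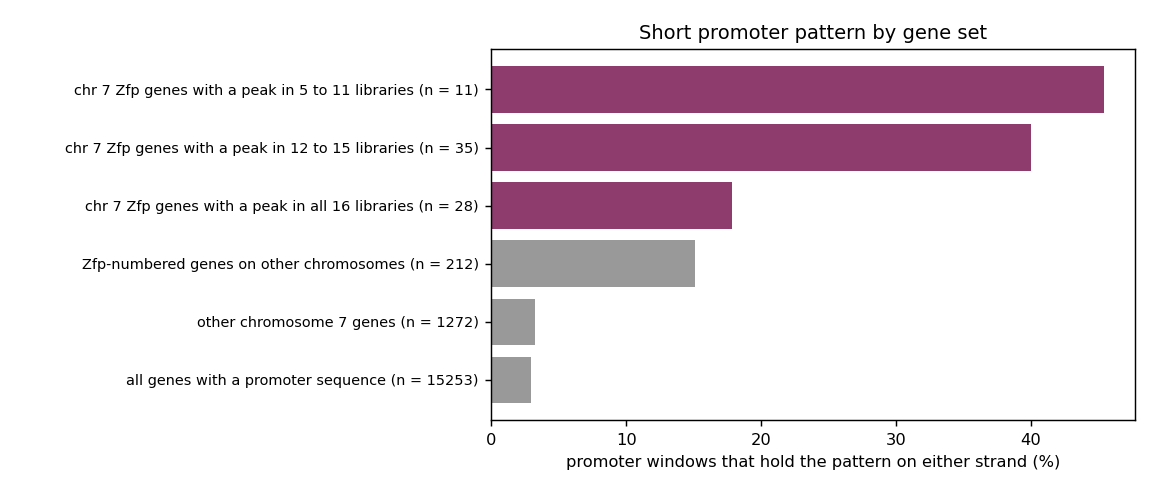
Share of RefSeq promoter windows that hold ACTACA, any 3 bases and CCCA on either strand, by gene set, with the number of promoters in each set. The pattern was chosen after some of the chromosome 7 Zfp promoters counted here had been read. The 3 upper bars are the chromosome 7 Zfp genes, split by the number of libraries with a promoter peak (45.5%, 40.0% and 17.9%), and the lowest bar is all genes at 2.93%.

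Other features of these promoters differed with the number of libraries as well. The median GC content was 59.5% for genes with a peak in all 16 libraries, 54.0% for those in 12 to 15 and 48.7% for those in 5 to 11, against 57.7% over all genes. The observed over expected ratio of CpG was 0.749, 0.616 and 0.564 in the same 3 sets, against 0.635 over all genes. Single promoters overlapped widely in this ratio, from 0.259 to 0.938 in the first set and from 0.0679 to 0.857 in the last. The ETS-type motif CCGGAAGT, searched on both strands, stood in 13.2% of the Zfp promoters and 5.79% of all promoters, and the NRF1-type motif GCGCATGC in 11.8% of the Zfp promoters and 4.02% of all. The GC box GGGCGG stood in 39.5% of the Zfp promoters and 51.0% of all, and CCAAT in 39.5% of the Zfp promoters and 38.3% of all. The CRE TGACGTCA stood in 1.32% of the Zfp promoters and 2.54% of all, and TCTCGCGA in none of the Zfp promoters and 1.60% of all. None of these motifs contains another.

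A gene was counted as open in a library, or as having a promoter peak, where a peak of that library overlapped 1 kb on either side of its transcription start site (TSS) by at least 1 bp. Nearly all of the Zfp genes were open in spermatogonia and fewer were open at each later stage. The share open was 97.6% ± 0 in Thy1, 92.1% ± 9.67 in cKit, 81.8% ± 9.09 in PS and 67.6% ± 15.3 in RS (mean ± SD, n = 4 libraries each). The same shares over all genes were 70.2% ± 3.74, 62.6% ± 9.32, 60.9% ± 6.22 and 59.9% ± 6.46. In the same order, Zfp-numbered genes on other chromosomes had shares of 91.5%, 85.9%, 81.2% and 72.8%, and the other chromosome 7 genes 63.6%, 56.5%, 54.6% and 53.0%.

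By library, the 4 Thy1 lists each held 83 of the 85 promoters. In cKit, Scml2-KO libraries had 97.6% and 77.6%, against 97.6% and 95.3% in wild type. In PS, Scml2-KO libraries had 90.6% and 76.5%, against 88.2% and 71.8% in wild type. In RS, Scml2-KO libraries had 83.5% and 63.5%, against 75.3% and 48.2% in wild type. The lowest RS share, 41 of 85 genes, had a Wilson 95% interval of 37.9% to 58.7%, which covers counting error only. Every RS library lay below every Thy1 library, and replicate 2 lay below replicate 1 in each group where the pair differed.

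The lists differed in length, from 17813 to 164060 peaks, and replicate 1 had the longer list in all 8 groups. When each list was reduced to its 17813 peaks of highest fold enrichment, the share of Zfp genes open was 83.5% ± 1.92 in Thy1, 78.8% ± 3.19 in cKit, 67.6% ± 5.48 in PS and 42.6% ± 9.72 in RS. Over all genes it was 51.6% ± 1.17, 48.7% ± 1.91, 50.1% ± 1.77 and 46.3% ± 2.75. With lists of equal length the Zfp genes thus lay above all genes at the first 3 stages, and in RS their range, 32.9% to 54.1%, spanned the mean of all genes. Set against P7, adult libraries had 55.1% ± 15.2 and P7 libraries 81.2% ± 3.50 (SD, n = 8 each), with no overlap, since the highest adult value was 74.1% and the lowest P7 value 76.5%.

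**Figure D2:**
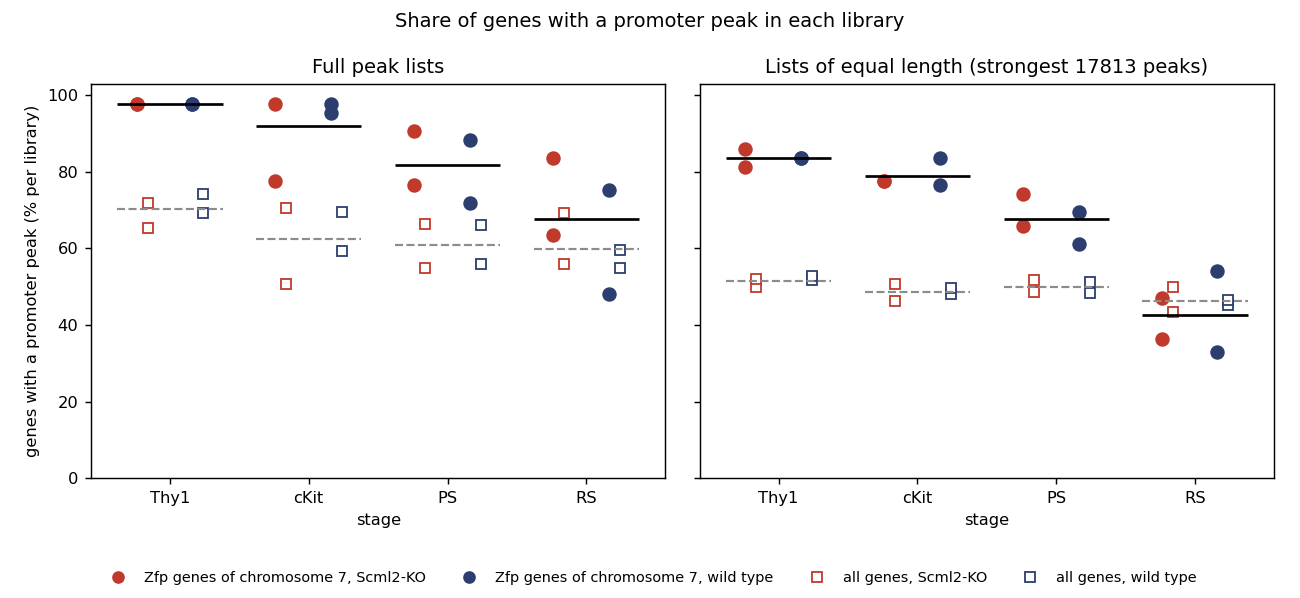
Percent of the 85 chromosome 7 Zfp genes (filled circles) and of all genes (open squares) with a promoter peak, per library and stage, in full lists (left) and in lists of equal length (right). Solid and dashed bars are means over 4 libraries. The Zfp genes lie at 97.6% in Thy1 and between 48.2% and 83.5% in RS in full lists.

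Promoter peaks of the Zfp genes were compact and centred on the start. Over the 1153 peaks, the median width was 700 bp and the median distance of the strongest summit from the TSS was 79 bp, and 80.4% of summits lay within 250 bp. Median width was 879 bp in Thy1, 691 bp in cKit, 660 bp in PS and 507 bp in RS. Gene bodies of these genes held peaks less often than their promoters. Of the 85 genes, 35 had no peak in the body in any library, and 13 had one in 8 or more libraries, among them Zfp628, Zfp787, Zfp78 and Zfp536. Widths and body peaks were not counted over all genes, nor in lists of equal length.

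Of the 85 genes, 33 were open in all 16 libraries, 37 in 12 to 15, 13 in 5 to 11 and 2 in none, and no gene was open in 1 to 4. The 33 are 38.8% of the 85, near the 39.0% of all genes (8369 of 21435) and below the 50.2% of Zfp-numbered genes on other chromosomes. Of all genes, 15.7% were open in 12 to 15 libraries, 18.3% in 5 to 11, 11.9% in 1 to 4 and 15.1% in none. The peak's fold enrichment is the authors' ratio and ranks peaks only within a list, so each gene is also given by its percentile among all promoter peaks of the same library. Highest among the 33 was Zfp143, with a median percentile of 96.9. Its fold enrichment was 41.3 and 22.2 in Scml2-KO Thy1, against 39.8 and 40.9 in wild-type Thy1. In RS it was 37.1 and 19.5 in Scml2-KO, against 30.5 and 18.8 in wild type. Within its own list it stood at percentiles 91.8 to 97.2 in Thy1 and 91.4 to 97.9 in RS.

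Zfp787, Zfp78, Zfp446 and Zfp574 followed Zfp143 in rank. Their place within the lists was less even by stage. Zfp446 stood at percentiles 97.4 to 99.3 in Thy1, 97.2 to 99.8 in cKit, 76.3 to 92 in PS and 40.7 to 70.4 in RS. Zfp78 stood at 94.5 to 98.3 in Thy1 and 60.9 to 86.9 in RS. The 5 lowest of the 33 were Zfp260, Zfp592, Zfp329, Zfp580 and Zfp688. Zfp260 stood at percentiles 52.1 to 79.6 in Thy1, 40.4 to 84.8 in cKit, 2.59 to 36.3 in PS and 11.2 to 45 in RS. Zfp592 stood at 38.9 to 51.4 in Thy1, 18.7 to 50.4 in cKit, 31.1 to 44.4 in PS and 39.7 to 46.3 in RS. Zfp628, which encodes a transcription factor needed in mouse spermiogenesis, was also open in all 16, with fold enrichments of 12.1 and 6.06 in Scml2-KO RS, against 7.75 and 6.76 in wild-type RS. Percentiles from lists of different length are a description and show no change by themselves.

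**Figure D3:**
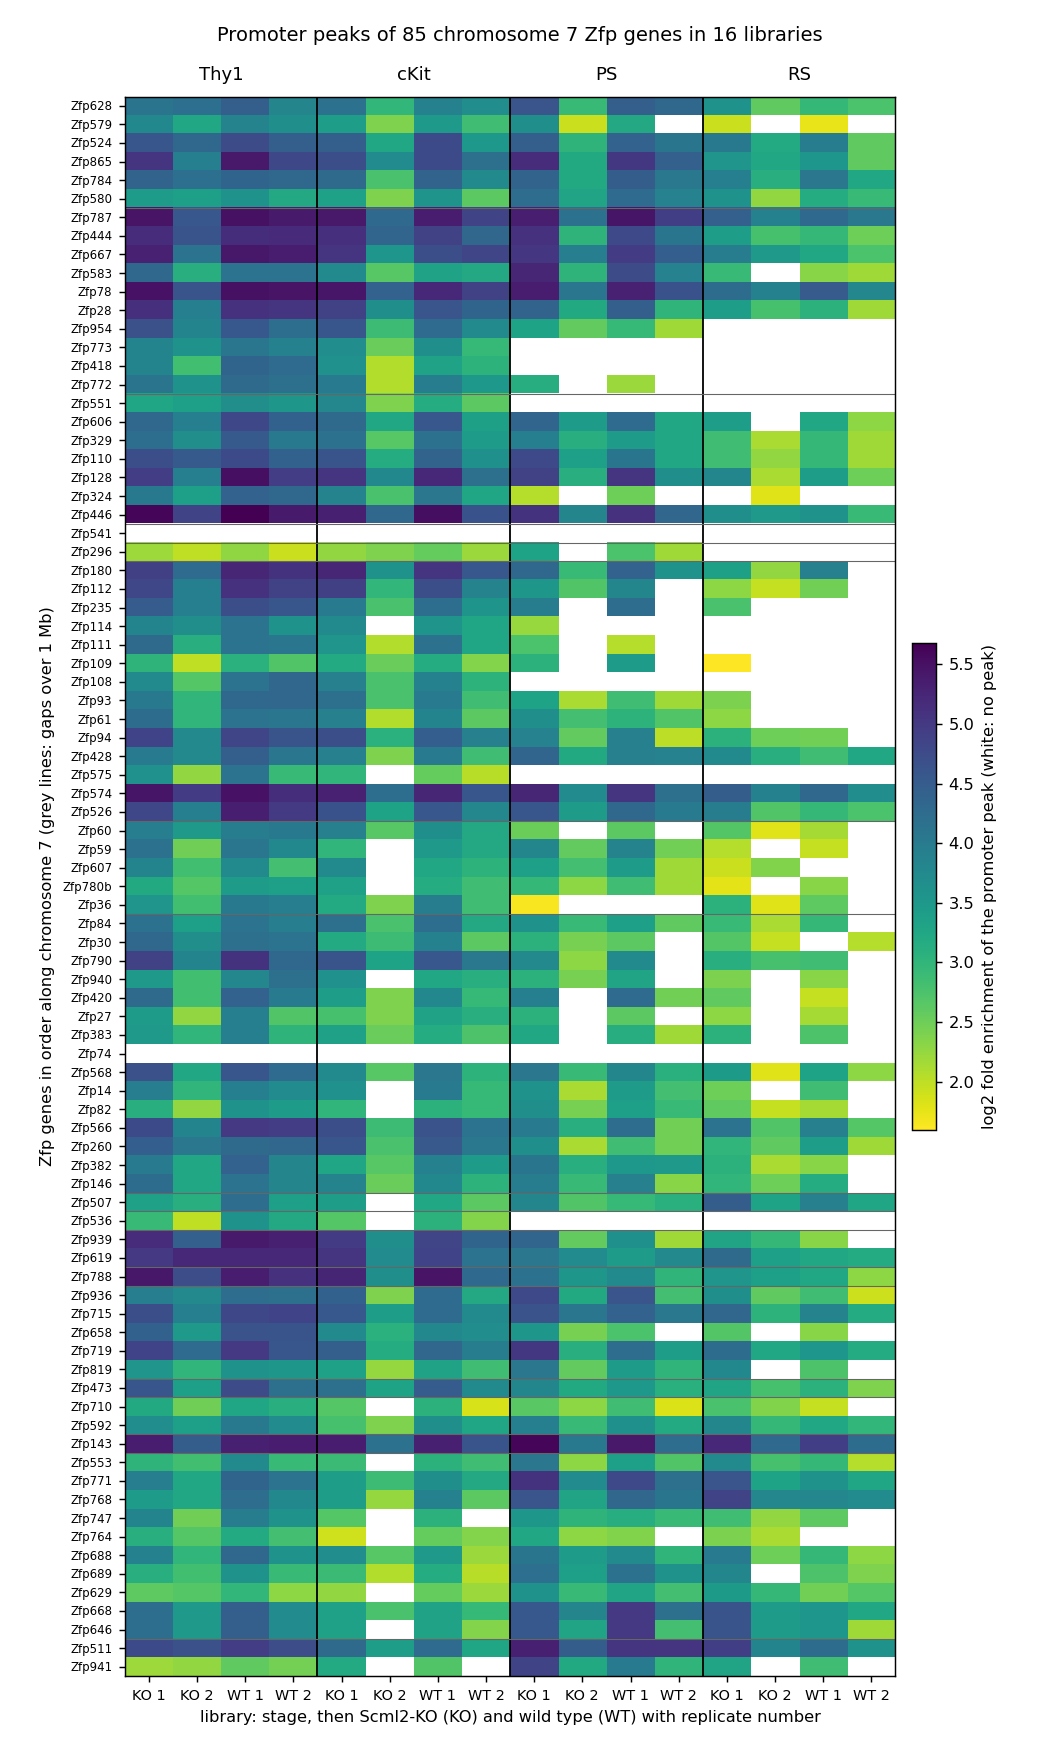
Fold enrichment (log2 colour scale) of the strongest promoter peak of each of the 85 Zfp genes, in order along chromosome 7, in each of the 16 libraries; white means no peak. Zfp541 and Zfp74 are white throughout, and white cells are most frequent in the 4 RS columns on the right.

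Adult germ cells (PS and RS, 8 libraries) were then set against P7 spermatogonia (Thy1 and cKit, 8 libraries) to ask which promoters differ across entry into meiosis. The share of Zfp genes open was 74.7% ± 13.9 in adult and 94.9% ± 7.0 in P7 libraries (SD, n = 8 each), beside 60.4% ± 5.89 in adult and 66.4% ± 7.74 in P7 libraries over all genes. For 9 Zfp genes the promoter was open in fewer adult libraries, and for none in more, by a two-sided Fisher's exact test per gene with Benjamini-Hochberg adjustment over all 3927 genes that could reach p = 0.05. Among those 3927 genes, 8.48% passed higher and 24.7% lower in adult cells. The 9 lower genes are 10.6% of the 85, beside 4.52% of all genes, and 13 of the 85 could be tested. None of the 13 could have passed higher, since each was open in every Thy1 library. Counted without a test, 42 Zfp genes (49.4%) were open in fewer adult than P7 libraries, beside 27.0% of all genes, and 5 (5.88%) in more, beside 16.1%. A gene open in all 8 P7 libraries cannot be open in more adult ones. That held for 77.6% of the Zfp genes and 49.2% of all genes.

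The 4 genes with the full difference were Zfp773, Zfp418, Zfp551 and Zfp108, each open in 0 of 8 adult and 8 of 8 P7 libraries (adjusted p = 0.00357, Fisher's exact test). Of all genes, 0.532% had that pattern. For Zfp773, whose TSS is at chr7:7136755, fold enrichment in Thy1 was 14.3 and 11.9 in Scml2-KO, against 16.9 and 14.7 in wild type. In cKit it was 12.8 and 5.77 in Scml2-KO, against 12.5 and 7.71 in wild type, and no PS or RS library had a peak. Within its own lists it stood at percentiles 44.6 and 60.3 in Scml2-KO Thy1, against 45.1 and 47.4 in wild-type Thy1. The 2 genotypes thus overlapped by percentile in Thy1 and by fold enrichment in cKit, and every P7 library held the peak.

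Zfp418, the next Zfp gene along the chromosome (TSS at chr7:7171353), was in the same state as Zfp773 in all 16 libraries. Its fold enrichment was 14.3 and 7.15 in Scml2-KO Thy1, against 20.5 and 19.1 in wild-type Thy1, and 12.3 and 4.20 in Scml2-KO cKit, against 10.1 and 8.23 in wild-type cKit. The median summit of Zfp418 lay 23.5 bp upstream of the TSS, and the capitalised pattern in its promoter ends 86 bases before it. Zfp551 (TSS at chr7:12422491) had 9.68 and 10.3 in Scml2-KO Thy1, against 12.7 and 11.5 in wild-type Thy1. In cKit it had 13.9 and 5.24 in Scml2-KO, against 8.90 and 6.17 in wild type. Zfp108 (TSS at chr7:24254794) had 13.2 and 6.36 in Scml2-KO Thy1, against 17.5 and 20.2 in wild-type Thy1, and 14.9 and 6.82 in Scml2-KO cKit, against 14.8 and 8.23 in wild-type cKit. By percentile within Thy1 lists, Zfp551 stood at 27.1 and 51.4 in Scml2-KO, against 31.9 and 35.1 in wild type, which overlap. Zfp418 stood at 44.6 and 29.5 in Scml2-KO, against 55.7 and 62.0 in wild type. Zfp108 stood at 40.7 and 23.1 in Scml2-KO, against 46.8 and 65.2 in wild type. None of these genes nor Zfp773 had a peak in the gene body in any library.

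The other 5 genes passed with 7 or 8 P7 libraries. Zfp575 and Zfp536 were each open in 0 adult and 7 P7 libraries (adjusted p = 0.00877, Fisher's exact test), and the P7 library without a peak was the same for both, the second Scml2-KO cKit library. The TSS of Ethe1 lies within 1 kb of that of Zfp575, so its peaks cannot be given to either gene alone. Zfp536, which encodes a factor first known from brain, had 7.64 and 3.97 in Scml2-KO Thy1, against 12.1 and 9.27 in wild-type Thy1. Zfp772 and Zfp111 were each open in 2 adult and 8 P7 libraries (adjusted p = 0.0247, Fisher's exact test). The 2 adult peaks of Zfp772 were in PS, at 8.84 in the first Scml2-KO library, against 4.65 in the first wild-type library. Those of Zfp111 were in the same 2 libraries, at 6.76 in the Scml2-KO one, against 4.13 in the wild-type one. Zfp114 was open in 1 adult library (Scml2-KO PS, 4.68) and 7 P7 libraries (adjusted p = 0.0305, Fisher's exact test). For Zfp114 the P7 library without a peak was again the second Scml2-KO cKit library. Each of the 9 calls held with any 1 library left out. Other settings ended 5 of them: a window of 500 bp or peaks with −log10 q of 5 or more for Zfp536, such peaks or a fold enrichment of 5 or more for Zfp575, a window of 2 kb for Zfp114, and no filter on genes tested for Zfp114, Zfp111 and Zfp772.

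A further 4 genes, Zfp324, Zfp296, Zfp235 and Zfp109, were open in 3 adult and 8 P7 libraries and did not pass (adjusted p = 0.0546 each, Fisher's exact test), although all 4 did without the second Scml2-KO cKit, the first Scml2-KO PS or the first wild-type PS library. Zfp296, known from pluripotent stem cells, had weak P7 peaks, at 4.59 and 3.97 in Scml2-KO Thy1, against 4.82 and 3.82 in wild-type Thy1. Its highest value was 9.88, in the first Scml2-KO PS library, and no RS library had a peak. With −log10 q of 5 or more its direction turned, to 12.5 points higher in adult libraries. Zfp36 was open in 4 adult libraries, 1 of PS and 3 of RS, and in 8 P7 libraries, too many in all to be tested. The 5 genes open in more adult than P7 libraries were Zfp507, Zfp553, Zfp747, Zfp629 and Zfp646. Apart from Zfp747, each of these was missing from the second Scml2-KO cKit library only. The TSS of another gene lies within 1 kb of that of Zfp507 (E130304I02Rik), Zfp553 (Gm4532) and Zfp646 (Zfp668). Their peaks cannot be given to either gene alone. At the outer end of its RefSeq gene, Zfp646 had a peak in 8 adult and 8 P7 libraries. Zfp941 was open in 6 adult and 6 P7 libraries, but its peaks stood at percentiles 31.1 to 79.4 within PS lists and 5.83 to 11.6 within Thy1 lists.

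With lists of equal length, 3606 genes could be tested, and 36.5% of them passed lower and 22.7% higher in adult libraries. Of the Zfp genes, 31 could then be tested and 21 passed, 20 lower and 1 higher. The higher one was Zfp941. Zfp773, Zfp418, Zfp108, Zfp772 and Zfp111, together with Zfp324 and Zfp60, were then open in 0 adult and 8 P7 libraries. Zfp536 and Zfp575 were no longer testable. In wild-type libraries alone 7 of the 9 genes passed, and in Scml2-KO libraries alone none did, with 4 at an unadjusted p of 0.0286 by Fisher's exact test, and this difference between genotypes was not tested.

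**Figure D4:**
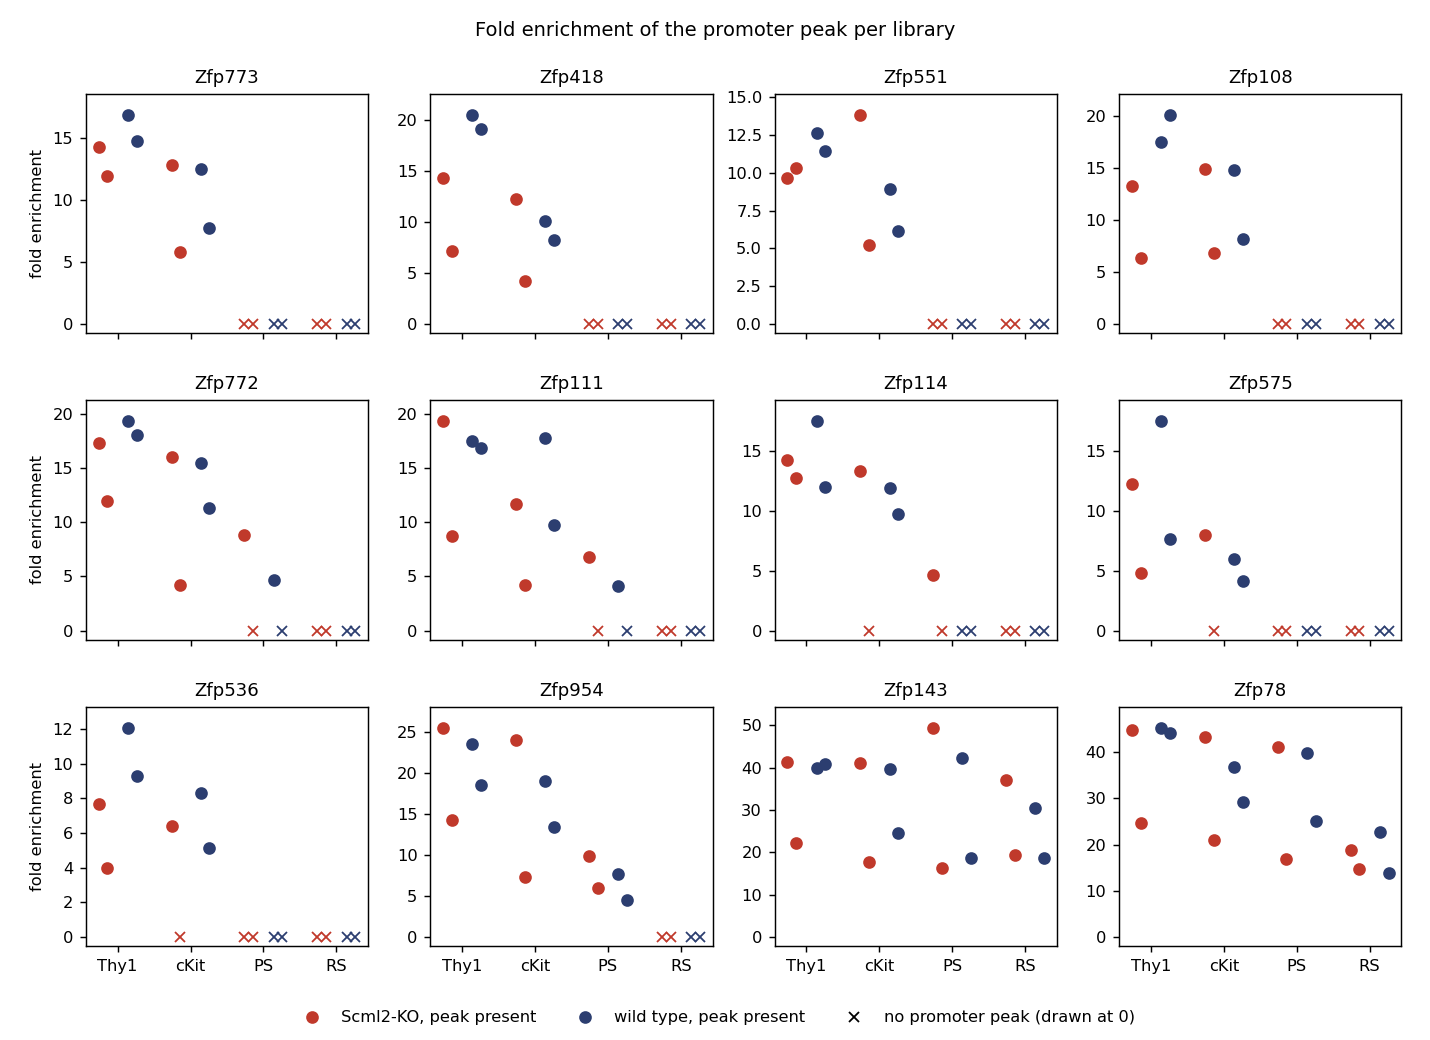
Fold enrichment of the promoter peak in each library, for the 9 Zfp genes that passed the adult against P7 test, for Zfp954, and for Zfp143 and Zfp78, by stage, with Scml2-KO left of wild type. Crosses at 0 are libraries with no peak, as in all PS and RS libraries of Zfp773, Zfp418, Zfp551 and Zfp108, while Zfp143 and Zfp78 have peaks throughout.

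Markers of cell types moved with the same comparison. Among 7 pachytene marker genes, 100% ± 0 were open in adult and 28.6% ± 13.2 in P7 libraries, and among 7 spermatid markers 92.9% ± 13.2 were open in adult and 19.6% ± 7.39 in P7 libraries. Markers of Thy1+ spermatogonia (7 genes) were open at 53.6% ± 14.8 in adult and 76.8% ± 24.1 in P7 libraries. Those of c-Kit+ spermatogonia (5) ran against the labels, at 72.5% ± 18.3 in adult and 57.5% ± 31.1 in P7 libraries, with ranges that overlap. Markers of somatic testis cells were open more often at P7. Sertoli markers (8 genes) were open at 29.7% ± 21.1 in adult and 84.4% ± 20.9 in P7 libraries, and peritubular markers (5) at 27.5% ± 30.1 in adult and 80.0% ± 30.2 in P7 libraries. Leydig markers (6) were open at 4.17% ± 7.72 in adult and 31.2% ± 25.9 in P7 libraries, and endothelial markers (5) at 7.50% ± 10.4 in adult and 55.0% ± 9.26 in P7 libraries. Immune markers (4) were open at 9.38% ± 12.9 in adult and 46.9% ± 24.8 in P7 libraries (SD, n = 8 each). No library had a promoter peak for 2 Leydig, 2 endothelial and 1 immune marker. The part of somatic cells in the Zfp results was not tested.

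Consecutive stages were compared by complete separation, a gene with a peak in each of 4 libraries on one side and in 0 of 4 on the other. With 4 against 4 libraries Fisher's exact test cannot go below p = 0.0286, and no Zfp gene passed adjustment. No Zfp gene separated cKit from Thy1, where 0% of all genes were open in cKit only and 0.238% in Thy1 only. Between PS and cKit, 4 Zfp genes were open in no PS and all cKit libraries, the same Zfp773, Zfp418, Zfp551 and Zfp108, and none the other way. Of all genes, 1.31% were open in cKit only and 1.05% in PS only in that step. Between RS and PS, 1 Zfp gene was open in no RS and all PS libraries, Zfp954, and none the other way, beside 0.196% of all genes open in PS only and 0.121% in RS only. The 4 genes are 4.71% of the 85, and Zfp954 is 1.18%.

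Zfp954 (TSS at chr7:7121476) lies next to Zfp773 on the same strand. Its fold enrichment in Thy1 was 25.5 and 14.3 in Scml2-KO, against 23.5 and 18.5 in wild type. In PS it was 9.88 and 5.98 in Scml2-KO, against 7.74 and 4.52 in wild type, and no RS library had a peak. With partial differences counted too, 34 Zfp genes (40.0%) were open in fewer RS than PS libraries and 2 (2.35%) in more, beside 15.1% of all genes in fewer and 12.6% in more. The 2 were Zfp36 and Zfp60. Besides the 2 genes open in no library at all, 11 Zfp genes had no peak in any RS library, the 9 that passed the adult test together with Zfp954 and Zfp296. They are 12.9% of the 85, near the 12.4% of all genes with a peak elsewhere and none in RS. A set of 13 genes was open in all 8 P7 and all 4 PS libraries but not in all RS libraries. Among them were Zfp180, Zfp84, Zfp382 and Zfp819, a KRAB gene known from pluripotent cells. The share of all genes with that pattern was not counted, so the 13 cannot be set against it. For Zfp819, RS peaks were present in the first library of each genotype, at 13.6 in Scml2-KO, against 6.64 in wild type, and absent from the second of each.

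Scml2-KO libraries were next compared with wild-type libraries within stages. The share of Zfp genes open was 85.6% ± 12.5 in Scml2-KO and 84.0% ± 17.8 in wild type (SD, n = 8 each), a difference of 1.62 points, beside 63.1% ± 8.06 in Scml2-KO and 63.6% ± 7.07 in wild type over all genes. No Zfp gene passed the exact permutation of genotype within stages, in which none of them could reach p = 0.05 with the peaks it had. Of the 817 genes that could, 0 (0%) passed after adjustment and 15 had an unadjusted p of 0.05 or less. The exact test has no power for these promoters, so it does not show that the genotypes are alike.

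Within single stages, Zfp607 and Zfp764 were open in both Scml2-KO and in neither wild-type RS library. Zfp607 had fold enrichments of 3.78 and 5.20 in Scml2-KO RS, and Zfp764 had 5.30 and 4.33. Within their lists these peaks stood low, at percentiles 3.57 and 19.2 for Zfp607 and 13.8 and 7.31 for Zfp764. The first Scml2-KO RS list was the longest of all, with 164060 peaks, against 52379 and 31070 in wild-type RS and 27105 in the second Scml2-KO RS list. With lists of equal length, Zfp607 had a peak in 1 RS library and Zfp764 in 0. In PS, Zfp607 had peaks in all 4 libraries and Zfp764 in all but the second wild-type one. Those 2 genes are 2.35% of the list, near the 2.29% of all genes with that pattern in RS, and 0.397% of all genes had the opposite one. No Zfp gene was separated by genotype in Thy1, cKit or PS. Of all genes, 0.07% were open in Scml2-KO only and 0.779% in wild type only in Thy1. In cKit these shares were 0.117% in Scml2-KO only and 0.121% in wild type only, and in PS 0.658% in Scml2-KO only and 0.858% in wild type only.

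Along the chromosome, splitting where neighbouring genes lay over 1 Mb apart gave 18 clusters, 7 of them of 1 gene. A gap of 35.3 Mb between Zfp473 (TSS at 44748617) and Zfp710 (TSS at 80024814) parts 70 proximal from 15 distal genes. All 9 genes that passed the adult test are proximal, but no distal gene could be tested, since each was open in 12 to 16 libraries. Zfp710 has 2 starts in the annotation and was counted as open at either. At the start named above it had a peak in 2 adult libraries, both RS, and in 7 P7 libraries. That is few enough to be tested, and its PS peaks lay only near the other start. The proximal genes were open at 97.1% ± 0 in Thy1, 93.6% ± 7.14 in cKit, 78.2% ± 10.5 in PS and 63.2% ± 16.2 in RS. The distal ones were open at 100% ± 0 in Thy1, 85% ± 22 in cKit, 98.3% ± 3.33 in PS and 88.3% ± 11.4 in RS (SD, n = 4 libraries). The 2 sides did not overlap in PS, where the proximal range was 67.1% to 88.6% and the distal range 93.3% to 100%. With Zfp710 counted at the start named above alone, they would overlap. This split by position is a description, since neighbouring genes share ancestry.

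The cluster from Zfp180 to Zfp526 (chr7:24081944-25221451) holds 14 Zfp genes, and 4 of them passed, Zfp114, Zfp111, Zfp108 and Zfp575. Its share open was 100% in Thy1, 96.4% in cKit, 67.9% in PS and 44.6% in RS, the lowest RS value among clusters of 2 or more genes at this gap. With gaps of 500 kb, Zfp954, Zfp773, Zfp418 and Zfp772 form a cluster of their own, at 37.5% in PS and 0% in RS. The 29 other genes between the ends of the cluster from Zfp180 to Zfp526 were open at 63.8% in Thy1, 60.3% in cKit, 58.6% in PS and 53.4% in RS. The largest cluster, from Zfp84 to Zfp146 (chr7:29768552-30169727), holds 15 Zfp genes with 1 other gene in between, and none could be tested, since each was open in 12 to 16 libraries or in none. Its shares were 93.3%, 88.3%, 81.7% and 66.7%. Zfp568, which in mice restrains a placental Igf2 transcript, lies in it and was open in all 16 libraries.

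The cluster from Zfp787 to Zfp772 (chr7:6155971-7209998) changes along its length. Of its 10 genes, the first 6 by position, from Zfp787 to Zfp28, hold the 5 open in all 16 libraries, and the last 4 are Zfp954, Zfp773, Zfp418 and Zfp772. The share open in this cluster was 100% in Thy1, 100% in cKit, 75.0% in PS and 57.5% in RS. At the proximal end of the chromosome, the cluster from Zfp628 to Zfp580 (chr7:4915217-5051532, 6 genes) stayed at 100%, 100%, 95.8% and 91.7%. At the distal end, Zfp511 and Zfp941 were open at 100%, 75.0%, 100% and 75.0%. Of the 67 pairs of neighbours within clusters, 15 were in the same state in all 16 libraries. Pairs of genes that are both open in all 16 libraries agree by definition. Apart from such pairs, only Zfp773 with Zfp418, Zfp93 with Zfp61 and Zfp382 with Zfp146 shared their state throughout.

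**Figure D5:**
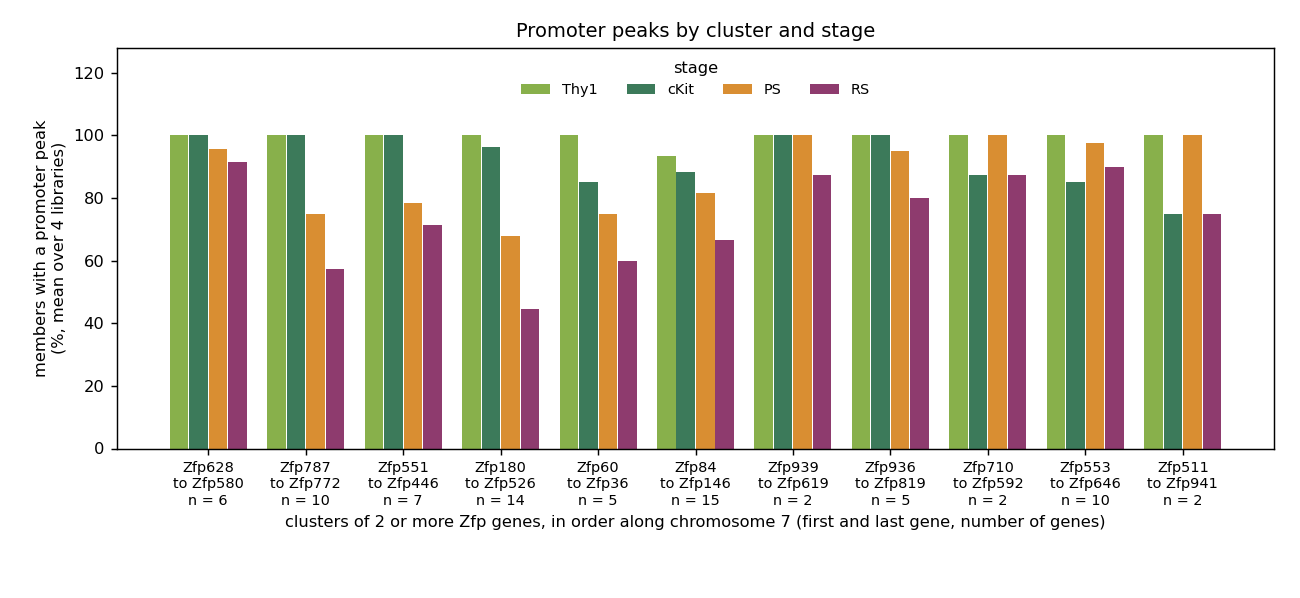
Percent of Zfp genes with a promoter peak (mean over 4 libraries of a stage) in each cluster of 2 or more genes, in order along chromosome 7. With clusters split at gaps over 1 Mb, that from Zfp180 to Zfp526 has the lowest RS bar, 44.6% (with gaps of 500 kb, the 4 genes from Zfp954 to Zfp772 stand at 0%). The clusters on the distal side, from Zfp710 on, keep PS bars at 97.5% or above, with Zfp710 counted at either of its 2 starts.

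Zfp541 and Zfp74 had no promoter peak in any library at the start the authors' annotation gives. Zfp541 encodes a protein of meiotic germ cells, and its TSS in the files is at chr7:16071942. A RefSeq start lies 97 bp from it, also with no peak. The RefSeq gene as a whole begins 10167 bp further upstream, at chr7:16061775, and a peak lay within 1 kb of that position in 7 adult and 7 P7 libraries. Its fold enrichment there was 12.9 and 5.20 in Scml2-KO RS, against 11.6 and 6.76 in wild-type RS. In Thy1 it was 4.08 and 6.36 in Scml2-KO, against 5.43 and 8.73 in wild type. For Zfp74 the RefSeq gene begins 2255 bp upstream of the start in the files, with a peak in 6 adult and 8 P7 libraries. Both genes thus had peaks at the outer end of the RefSeq gene and none at the start in the files. These positions were looked at after the counts had been seen.

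Genes that work with KRAB zinc fingers were described by a list of 28, of which 21 were open in all 16 libraries and 1, Atrx, could be tested in adult against P7 libraries. Trim28, itself on chromosome 7, and Cbx5 and Dnmt1 were open in all 16, and Setdb1 in 8 adult and 7 P7 libraries. Atrx, a chromatin remodeller, was open in 3 adult and 8 P7 libraries and did not pass (adjusted p = 0.0546, Fisher's exact test). The list was open at 92.4% ± 4.02 in adult and 96.0% ± 1.26 in P7 libraries. Among 15 chromosome 7 zinc finger genes of other names, 6 were open in all 16 and 3 in none, and no gene of this list could be tested. Peg3, an imprinted zinc finger gene, was open in all 16, and Zik1 was open in all P7 and PS libraries and in no RS library, as Zfp954 was.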

How the data were processed

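ATAC-seq peak lists of 16 libraries were used, 1 list per library. Per the submitters' processing notes, the tools were Bowtie 1.1.1 and MACS2 2.1.0.20140616 and the build mm10; the calling threshold is not given in the sources used here. Per the file headers, the authors deposited for each summit a fold enrichment, which is a ratio, a pileup, which is the coverage signal at the summit, and −log10 p and −log10 q values. Lines of the same peak were joined, and 576 mitochondrial lines of 1431525 were left out, which left 1111092 peaks. Sequencing depth is unknown, as the lists hold no read totals.

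TSS came from the authors' annotation (23534 positions of 21435 genes). Of genes named only together with others, 1103 were matched by position to RefSeq (GRCm38.p6) and 309 were not used. Each gene got the highest fold enrichment of a peak in its window. Where no peak is listed, no stretch reached the threshold of the caller, which does not show closed chromatin. Presence was tested per gene over all genes with Fisher's exact test, or by exact permutation of genotype within stages, with Benjamini-Hochberg adjustment at 0.05, in Python 3.11.15 with scipy 1.17.1 and pandas 2.3.3, and the script was tested on simulated data. The genes named are those that passed or separated groups, those open in 5 to 11 libraries or in none, up to 3 per stage separated by genotype, the 5 highest and 5 lowest in rank of those open in all 16, and genes of known role. The genes, lists and comparisons were chosen with earlier results of these data known. Alternatives tried were windows of 500 bp and 2 kb, stricter peaks, lists of equal length, RefSeq TSS, 1 TSS per gene, no filter on genes tested, each library left out, each genotype alone and a replicate block. Protein sequences were not used here.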

Additional observations from a re-analysis of the deposited data

Results flagged for a closer look

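A single library stood apart from the other libraries of its group in 1 measure. In the second Scml2-KO cKit library, 77.6% of the chromosome 7 Zfp genes had a promoter peak. That value lay far below the others both among the 4 cKit libraries and among the 8 P7 libraries, where all other values were 95.3% or higher. Dixon's criterion, which marks about 1 in 20 groups by chance, was passed in both, out of 21 groups tested. The cKit libraries are part of the P7 libraries, so both marks rest on the same library and value. This library has the shortest list of all, 17813 peaks, and 17 Zfp genes with a peak elsewhere had none there. With lists of equal length it held 77.6% again, inside the cKit range of 76.5% to 83.5%.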

How the results depend on the processing

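In adult against P7 cells 9 Zfp genes passed. In all, 8 to 11 did so with other windows, stricter peaks, RefSeq starts or 1 start per gene, 6 with no filter on genes tested, 9 to 13 with any 1 library left out, and 9 without the 2 shortest lists, an alternative chosen after seeing the data. Over all genes, 969 passed lower and 333 higher of 3927 in the main setting. With 1 library left out, 969 to 1891 passed lower and 334 to 523 higher. Without the 2 shortest lists, 1497 passed lower and 489 higher of 3183. With no filter or the replicate block described below, all genes were not counted. With lists of equal length 21 passed of the 31 Zfp genes then tested. In wild type alone 7 passed, and in Scml2-KO alone 0 did, with 4 genes at an unadjusted p under 0.05 (Fisher's exact test, smallest adjusted p = 0.0841). Over all genes, 742 passed lower and 171 higher of 1412 tested in wild type alone, and 0 of 1086 in Scml2-KO alone. The labels give the samples of different groups a shared replicate number but no shared animal or day. Differences of replicate 1 minus replicate 2 correlated between groups at -0.003 to 0.424 across genes, and replicate 1 had the longer list in all 8 groups. With that number as a replicate block 14 passed, with Zfp109, Zfp235, Zfp296, Zfp324 and Zfp27 besides the 9; the count of separated genes by step was then 0, where no p below 0.0556 is possible, and 0 for genotype. Separated genes between PS and cKit numbered 4, 2 with −log10 q of 5 or more, 10 with equal lists and 0 by Fisher's exact test (smallest adjusted p = 0.0659), and 4 to 6 with 1 library left out. Between RS and PS they numbered 1, 2 with fold enrichment of 5 or more, 5 with equal lists and 0 by Fisher's exact test (smallest adjusted p = 0.364). Leaving out 1 library gave 1 to 3, and the higher counts came without the second Scml2-KO PS library (2) or the first Scml2-KO RS library (3). Genes separated by genotype within a stage numbered 2, 5 with a window of 500 bp, 4 with fold enrichment of 5 or more, and 2 to 17 with 1 library left out, where 1 lone library stood for its group. The counts over 3 came without the first Scml2-KO cKit (17), the first wild-type RS (15), the first wild-type PS (9), either Scml2-KO RS (6), the first Scml2-KO PS (5) or the second Scml2-KO PS library (4). In these alternatives, separated genes by stage or genotype were not counted over all genes, so the counts have no background to be set against. The share of Zfp genes open, adult minus P7, was -20.1 points and -14.2 relative to all genes, with -22.6 to -16.4 when 1 library was left out. The share difference by genotype ran from -3.49 to 4.77 points in the same way. Zfp296 turned to 12.5 points higher in adult libraries with −log10 q of 5 or more. Clusters numbered 18, 21 with gaps of 500 kb and 12 with gaps of 2 Mb. Results on single Zfp genes kept their direction and their side of the threshold in 303 of 338 alternatives. Having 2 libraries per group limits all comparisons by genotype.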
